A study of Mus musculus with 2 samples.

Results

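The genes described here were 10 members of the vasoactive peptide and nitric oxide systems, chosen by symbol: Edn1, Ednrb and Ece1 of the endothelin system, Ace of the angiotensin system, Nos3 of the nitric oxide system, Adm, Calcrl and Ramp2 of the adrenomedullin system, and Apln and Aplnr of the apelin system. All 10 were found among the 31053 genes of both count matrices. Mouse lung cells were profiled by droplet single-cell RNA sequencing with the 10x Genomics 3' chemistry, in 1 library labelled Normoxia and 1 library labelled Hypoxia. The labels describe tdT-sorted cells from NG2tdT lungs, a line in which tamoxifen lets a Cre recombinase under the NG2 (Cspg4) promoter switch on the Ai14 tdTomato reporter in pericytes and other NG2-lineage cells. Animals of this line received tamoxifen at 2 mg per 30 g of body weight and rested for 7 days. The Hypoxia group then breathed air at an FiO2 of 10% for 21 days, and the Normoxia group did not. By the labels both groups thus share the transgenes and the tamoxifen, but the study's text gives wild-type animals for its mouse single-cell data. The labels give no age and do not say how many animals were pooled in a library. A label mentions 3 replicates, yet each group had a single matrix, so no test between the groups was possible and no p-value is given. All intervals below are 95% intervals that cover counting error only, not the spread between animals.

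Endothelin-1, made from a precursor by the endothelin-converting enzyme Ece1, is a strong constrictor peptide of the vessel wall, and its receptor Ednrb on endothelial cells is known to clear the peptide from the lung circulation and to promote nitric oxide release. Ace, on the surface of lung capillary endothelium, makes angiotensin II and degrades bradykinin, while Nos3 is the endothelial nitric oxide synthase. Adrenomedullin (Adm) is a vasodilator peptide that signals through the receptor Calcrl when this is paired with the accessory protein Ramp2, and apelin (Apln) is a vasodilator ligand of the receptor Aplnr. In the lung, capillary endothelium holds a large Car4-positive cell type, also called the aerocyte, and a second population, the general capillary cell.

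The promoters of the genes whose levels divided the endothelial cells, Edn1, Ednrb and Apln, are shown with that of Adm, the ligand that these cells hardly expressed. Each run is the 250 bases before the RefSeq start site, from the table of build GRCm38.p6, read 5′ to 3′ on the gene's strand. Capitals mark ACGTG or GCGTG, the core of the hypoxia response element, on either strand (CACGT and CACGC are their reverse complements). The windows lie at chr13:42301226-42301475 (+ strand) for Edn1, chr14:103843702-103843951 (− strand) for Ednrb, chrX:48034854-48035103 (− strand) for Apln and chr7:110627407-110627656 (+ strand) for Adm.
Edn1: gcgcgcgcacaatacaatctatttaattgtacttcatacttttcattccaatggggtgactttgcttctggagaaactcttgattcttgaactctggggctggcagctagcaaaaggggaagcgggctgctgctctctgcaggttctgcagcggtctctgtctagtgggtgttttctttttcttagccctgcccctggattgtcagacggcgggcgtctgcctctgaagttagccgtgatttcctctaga
Ednrb: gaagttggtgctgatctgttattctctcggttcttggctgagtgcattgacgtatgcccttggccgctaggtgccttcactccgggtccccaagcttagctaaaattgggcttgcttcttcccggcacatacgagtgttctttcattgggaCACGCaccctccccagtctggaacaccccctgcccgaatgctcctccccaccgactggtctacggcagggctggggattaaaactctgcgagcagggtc
Apln: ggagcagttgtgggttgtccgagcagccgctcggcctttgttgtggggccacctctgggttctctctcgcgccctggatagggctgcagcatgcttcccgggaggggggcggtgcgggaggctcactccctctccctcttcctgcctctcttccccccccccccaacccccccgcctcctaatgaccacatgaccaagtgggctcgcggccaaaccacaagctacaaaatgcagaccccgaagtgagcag
Adm: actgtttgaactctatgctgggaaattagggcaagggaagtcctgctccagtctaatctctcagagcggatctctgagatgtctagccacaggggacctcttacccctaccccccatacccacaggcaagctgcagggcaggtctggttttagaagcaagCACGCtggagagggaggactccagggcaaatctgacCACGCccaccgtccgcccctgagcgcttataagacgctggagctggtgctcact
The Ednrb window held the core at 1 place and the Adm window at 2 places, and the Edn1 and Apln windows did not hold these letters. Of the 7 members with an entry in the table (Edn1, Ednrb, Ece1, Ace, Adm, Calcrl and Apln), 3 had a window with the core, the third being Ece1. Counted by window, 5 of the 11 windows of these members held the core, beside 38.6% of all 32851 windows of the table. A match is a description of the letters and not a binding site.

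The matrices held 373 Normoxia and 613 Hypoxia barcodes, of which 293 and 453 were retained, with medians of 3135 and 2818 UMIs (unique molecular identifiers, counted transcripts) per cell. Clustering without the 10 members and their 65 pathway genes gave 15 clusters. One of these, with 20 cells in each library, had Car4 UMIs in all of its cells and was led by Car4, Emp2 and Fibin, and is called Car4-positive endothelial. The 3 other clusters with endothelial markers (clusters 2, 8 and 10) gave 75 Normoxia and 176 Hypoxia cells, called other endothelial. Cluster 8 lay just under the limit of 50% of cells with a Car4 UMI, at 49.3%, but its Car4 level was 635 CPM (the UMIs of a gene scaled to a common library total) against 5614 CPM in the Car4-positive cluster. The named cell type of the sort was poorly represented. The protocol in the labels has no sorting step. The study's text describes lung cells of wild-type mice exposed to hypoxia, depleted of immune (CD45+) and epithelial (CD326+) cells. It combined them with a published set of lung cells from hypoxia and normoxia. Which preparation and genotype these libraries hold is not settled by the sources used here, so shares of cells among the libraries are given as found. None of the clusters could be named pericyte, Cspg4 had a UMI in 1 Normoxia and 2 Hypoxia cells, and the 8 pericyte markers summed to 315 CPM in all Normoxia cells and 38.9 CPM in all Hypoxia cells. In the Car4-positive cells all 8 pericyte markers were at 0. They summed to 41.2 CPM in Normoxia and 14.0 CPM in Hypoxia over the other endothelial cells. The libraries shared 2 barcodes, neither in an endothelial group.

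Endothelial cells held most transcripts of the receptors and enzymes. Over both libraries, the Car4-positive and other endothelial cells together gave 92.2% of the 115 Apln UMIs, 91.9% of the 1396 Calcrl UMIs, 91.4% of the 198 Aplnr UMIs and 91.1% of the 3384 Ramp2 UMIs in retained cells. The share was 83.7% for Ace, 81.6% for Edn1, 77.1% for Ednrb, 75.9% for Nos3 and 70.0% for Ece1. Adm was the exception: 3.2% of its 63 UMIs came from these cells, while fibroblasts gave 47.6%, lymphatic endothelial cells 25.4% and B cells 15.9%. B cells and T or NK cells, which should lack most of these genes, were taken as the background from free RNA. In B cells Edn1, Ednrb, Apln and Aplnr were at 0 in both libraries (31 Normoxia and 55 Hypoxia cells, with median depths of 4114 and 1869 UMIs). The 15 Normoxia T or NK cells held 5 Apln UMIs (75.0 CPM, 24.3 to 174.9) and 2 Ednrb UMIs (30.0 CPM, 3.63 to 108.3). For each gene all of these UMIs were in 1 cell. The 46.3 CPM of Apln in other endothelial cells of that library lay inside this Apln interval, though above the 0 of the B cells. It is therefore not taken as above background. Whether the UMIs of these single T or NK cells came from free RNA was not tested. In the same T or NK cells Ramp2 stood at 345 CPM, but a single cell held 95.7% of those 23 UMIs.

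**Figure D1:**
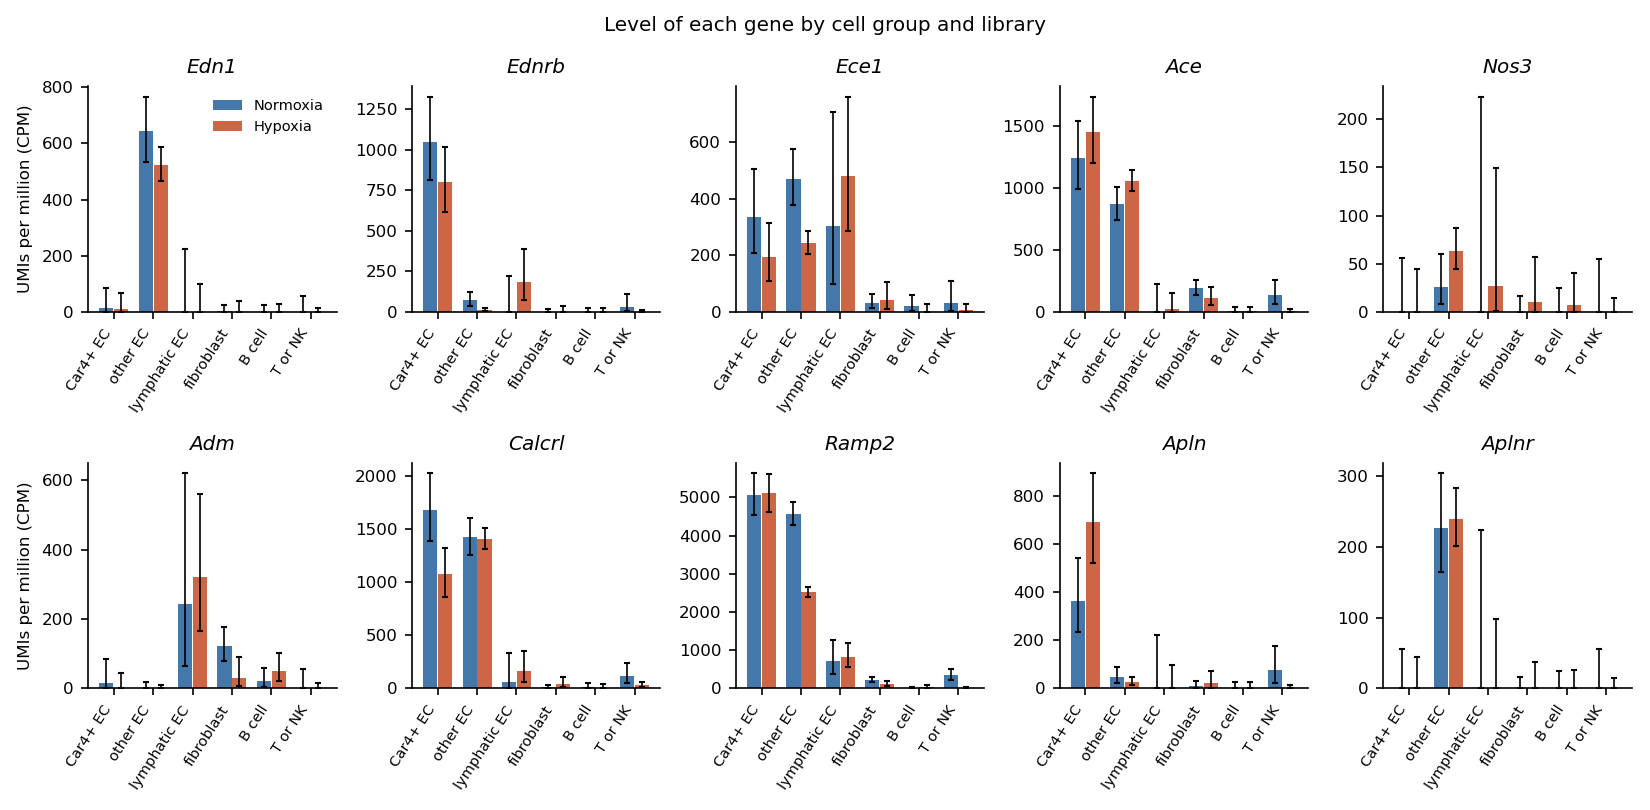
Level of each of the 10 genes in CPM (vertical axis, linear from 0, a scale of its own for each gene) in 6 cell groups, for the Normoxia library (blue) and the Hypoxia library (orange); bars are UMIs summed over the cells of a group, and whiskers are exact Poisson 95% intervals of counting error. Edn1 and Aplnr stand in other endothelial cells, Ednrb and Apln in Car4-positive cells, and Adm in lymphatic endothelial cells and, in Normoxia, fibroblasts.

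Edn1, the constrictor ligand (chr13:42301476-42307990, + strand, GRCm38), was high in the other endothelial cells and nearly absent from the Car4-positive cells. The unnamed cluster 4, which holds endothelial markers and is described below, gave 23.0% of the 392 Hypoxia UMIs. The other endothelial cells had 125 UMIs, or 643 CPM (535 to 766), in Normoxia and 300 UMIs, or 525 CPM (467 to 588), in Hypoxia. The Car4-positive cells held 1 Edn1 UMI in each library, 15.2 CPM (0.384 to 84.6) in Normoxia and 12.1 CPM (0.307 to 67.5) in Hypoxia. The intervals of the 2 summed levels thus did not overlap in either library. The Car4-positive level was lower by a log2 ratio of -5.40 (-10.72 to -2.90) in Normoxia and -5.44 (-10.75 to -2.95) in Hypoxia. Between the libraries, Edn1 in other endothelial cells had a log2 ratio of Hypoxia to Normoxia of -0.29 (-0.60 to 0.02). The clusters did not share a direction: cluster 10 had a ratio of -0.81 (-1.34 to -0.25), cluster 8 of -0.66 (-1.25 to -0.08) and cluster 2 of 0.33 (-0.38 to 1.10). With 30 principal components the ratio over other endothelial cells was 0.60, and with cluster 4 added it was 0.45, so no direction is given for Edn1.

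Ednrb, the receptor (chr14:103814625-103844402, − strand), had the opposite distribution to its ligand. In Car4-positive cells it stood at 1048 CPM (815 to 1326) in Normoxia, from 69 UMIs in 19 of 20 cells. In Hypoxia it stood at 800 CPM (618 to 1017), from 66 UMIs in 17 of 20 cells. The other endothelial cells gave 14 UMIs in 3 of 75 Normoxia cells and 6 UMIs in 4 of 176 Hypoxia cells. The Car4-positive level was 14.5-fold higher in Normoxia and 76.2-fold higher in Hypoxia (log2 ratios 3.86, 3.02 to 4.81, and 6.25, 5.05 to 7.75). The size of the Normoxia ratio rested on 1 cell of cluster 8, which held 9 of the 14 UMIs of the other endothelial cells; without the cell with most Ednrb UMIs in each group and library the Normoxia log2 ratio was 5.09. Between the libraries, Ednrb in other endothelial cells was 72.0 CPM in Normoxia against 10.5 CPM in Hypoxia (log2 ratio -2.78, -4.44 to -1.31). It was -2.33 (-5.02 to 0.03) without the cell with most Ednrb UMIs in each library, and -0.85 (-2.08 to 0.31) with 30 principal components. In Car4-positive cells the log2 ratio of Hypoxia to Normoxia was -0.39 (-0.90 to 0.12), an interval that holds 0.

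Ece1, the processing enzyme (chr4:137862237-137965229, + strand), was found in Car4-positive, other and lymphatic endothelial cells and was lower in Hypoxia in the other endothelial cells. In other endothelial cells it was 468 CPM (377 to 575) in Normoxia and 243 CPM (205 to 287) in Hypoxia, a log2 ratio of -0.94 (-1.34 to -0.55). Cluster 8 had a ratio of -1.27 (-2.0 to -0.58), cluster 10 of -0.57 (-1.42 to 0.40) and cluster 2 of -0.37 (-1.29 to 0.60), so the same sign in all 3 but an interval without 0 in 1. In Car4-positive cells it was 334 CPM (209 to 506) in Normoxia, from 22 UMIs, and 194 CPM (111 to 315) in Hypoxia, from 16 UMIs, with a log2 ratio of -0.78 (-1.81 to 0.21), an interval that holds 0. Its level did not separate the Car4-positive from the other endothelial cells beyond counting error in either library (log2 ratios -0.49, -1.23 to 0.20, and -0.33, -1.17 to 0.42).

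Ace (chr11:105967945-105989964, + strand) was abundant in both endothelial groups and moderately higher in the Car4-positive cells. In Normoxia it was 1245 CPM (990 to 1545) in Car4-positive cells and 869 CPM (743 to 1011) in other endothelial cells. In Hypoxia the levels were 1454 CPM (1206 to 1739) and 1059 CPM (976 to 1146). Car4-positive over other cells gave a log2 ratio of 0.52 (0.12 to 0.91) for Normoxia and 0.46 (0.16 to 0.74) for Hypoxia, nearly the same in both libraries. Against Normoxia, Hypoxia had a log2 ratio of 0.28 (0.04 to 0.54) in other endothelial cells and 0.22 (-0.19 to 0.65) in Car4-positive cells, and all 3 clusters of the other cells had ratios above 0 (0.28 to 0.59). Over all retained cells the ratio was 0.78 (0.59 to 0.96), at a share of cells from the 2 endothelial groups that was also larger in Hypoxia (38.9% other and 4.42% Car4-positive, against 25.6% and 6.83% in Normoxia). Fibroblasts held a lower level of Ace, 189 CPM in Normoxia and 113 CPM in Hypoxia.

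Nos3 (chr5:24364810-24384474, + strand) was sparse. It gave 5 UMIs in 4 of 75 Normoxia cells and 36 UMIs in 32 of 176 Hypoxia cells of the other endothelial group, 25.7 CPM (8.35 to 60.0) and 63.0 CPM (44.1 to 87.2). The ratio was 2.45-fold (log2 1.29), but its interval of -0.06 to 3.00 held 0, and when barcodes were retained without a mitochondrial maximum and clustered again, the Normoxia cells held 0 UMIs against 11 in Hypoxia, which at the 3-count floor allows a log2 ratio from -0.98 upward and gives no direction. In Car4-positive cells Nos3 was at 0 in both libraries, which allows up to 45.6 CPM in Normoxia and 36.4 CPM in Hypoxia at 3 counts. The Normoxia level of the other endothelial cells lay under that limit, so no fold is given there. In Hypoxia the Car4-positive level at that limit was 1.73-fold lower, and the exact interval of the log2 ratio ended at -0.42. An antisense gene, Gm15587, and Atg9b overlap Nos3 on the other strand, and the strand setting of the counting is not given in the sources used here. Other members also had a gene on the other strand: Edn1 (Gm47118), Ece1 (Gm13012), Ace (Gm11651) and Adm (Gm28863).

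The adrenomedullin ligand was nearly absent where its receptor was most abundant. Adm (chr7:110627661-110629820, + strand) gave 0 UMIs in Normoxia and 1 UMI in Hypoxia in other endothelial cells, and 1 UMI and 0 UMIs in Car4-positive cells. Lymphatic endothelial cells had 242 CPM (65.95 to 619.8) in Normoxia, from 4 UMIs in 2 of 4 cells, and 321 CPM (166 to 560) in Hypoxia, where all 12 UMIs were in 1 of 6 cells. Fibroblasts had 122 CPM (80.2 to 177) in Normoxia, from 27 UMIs, and 30.8 CPM (6.36 to 90.1) in Hypoxia, from 3 UMIs. Of the background groups, B cells had 20.4 CPM in Normoxia, from 3 UMIs, and 50.2 CPM in Hypoxia, from 7 UMIs. T or NK cells held 0 Adm UMIs in both libraries. The Hypoxia level of fibroblasts, on 3 UMIs, was thus not above that of B cells, though above the 0 of T or NK cells. Whether the Adm UMIs of B cells came from free RNA was not tested. The log2 ratio of Hypoxia to Normoxia in fibroblasts was -1.98 (-4.35 to -0.28), on 11 Normoxia and 2 Hypoxia cells with a UMI.

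Calcrl, the receptor (chr2:84330626-84425411, − strand), had levels in other endothelial cells that differed by less than counting error, 1425 CPM (1262 to 1603) in Normoxia and 1410 CPM (1315 to 1511) in Hypoxia. The log2 ratio was -0.01 with an interval of -0.21 to 0.19, and the 3 clusters lay between -0.14 and -0.05. In Car4-positive cells Calcrl was lower in Hypoxia, at 1078 CPM (866 to 1327) against 1685 CPM (1386 to 2030) in Normoxia, a log2 ratio of -0.64 (-1.06 to -0.23). When Car4-positive cells were taken by at least 1 Car4 UMI in the cell, the ratio was -0.09. Among other endothelial cells, 69 of 75 in Normoxia and 161 of 176 in Hypoxia had a Calcrl UMI, and 69 and 158 of these also held a Ramp2 UMI.

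Ramp2, the accessory protein (chr11:101246028-101259546, + strand), gave the most precise difference between the libraries. In other endothelial cells it was 4568 CPM (4273 to 4879) in Normoxia, from 888 UMIs, and 2521 CPM (2393 to 2655) in Hypoxia, from 1441 UMIs. The 2 intervals did not overlap, and the log2 ratio was -0.86 (-0.98 to -0.74). It was of like size in every cluster of these cells, with -0.76 (-1.03 to -0.48) for cluster 2, -0.86 (-1.08 to -0.66) for cluster 8 and -0.78 (-1.03 to -0.53) for cluster 10. Cluster levels were 4233 to 4699 CPM in Normoxia and 2462 to 2664 CPM in Hypoxia. In Car4-positive cells, by contrast, Ramp2 was 5056 CPM (4528 to 5629) in Normoxia and 5101 CPM (4626 to 5613) in Hypoxia, at a ratio of 0.01 on the log2 scale (-0.20 to 0.22). The intervals of the ratio in the 2 endothelial groups did not overlap. As a result Ramp2 separated the endothelial groups in 1 library only, with a log2 ratio of Car4-positive to other cells of 0.15 (-0.04 to 0.33) in Normoxia and 1.02 (0.86 to 1.17) in Hypoxia. This contrast depended on how the groups were drawn: with Car4-positive cells taken by at least 1 Car4 UMI, the Hypoxia to Normoxia ratio was -0.70 in both groups.

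Other genes of the other endothelial cells moved beside Ramp2. The 12 endothelial markers summed to 20542 CPM in Normoxia and 16043 CPM in Hypoxia there, and to 23838 and 24440 CPM in Car4-positive cells. Among them Cldn5, a tight junction gene, was 6384 and 3849 CPM in other endothelial cells, a log2 ratio of -0.73 (-0.83 to -0.63), while Cdh5 and Pecam1 had ratios of -0.18 and -0.11. The make-up of the group also differed: cluster 10, led by Ntrk2, gave 100 of 176 Hypoxia cells and 14 of 75 Normoxia cells. Plvap was 1996 CPM in Normoxia against 275 CPM in Hypoxia, and Ntrk2 was 61.7 and 845 CPM. The part of these shifts in the Ramp2 ratio was not tested. Vps25 overlaps Ramp2 on the same strand, so reads in the shared stretch could have been left uncounted.

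**Figure D2:**
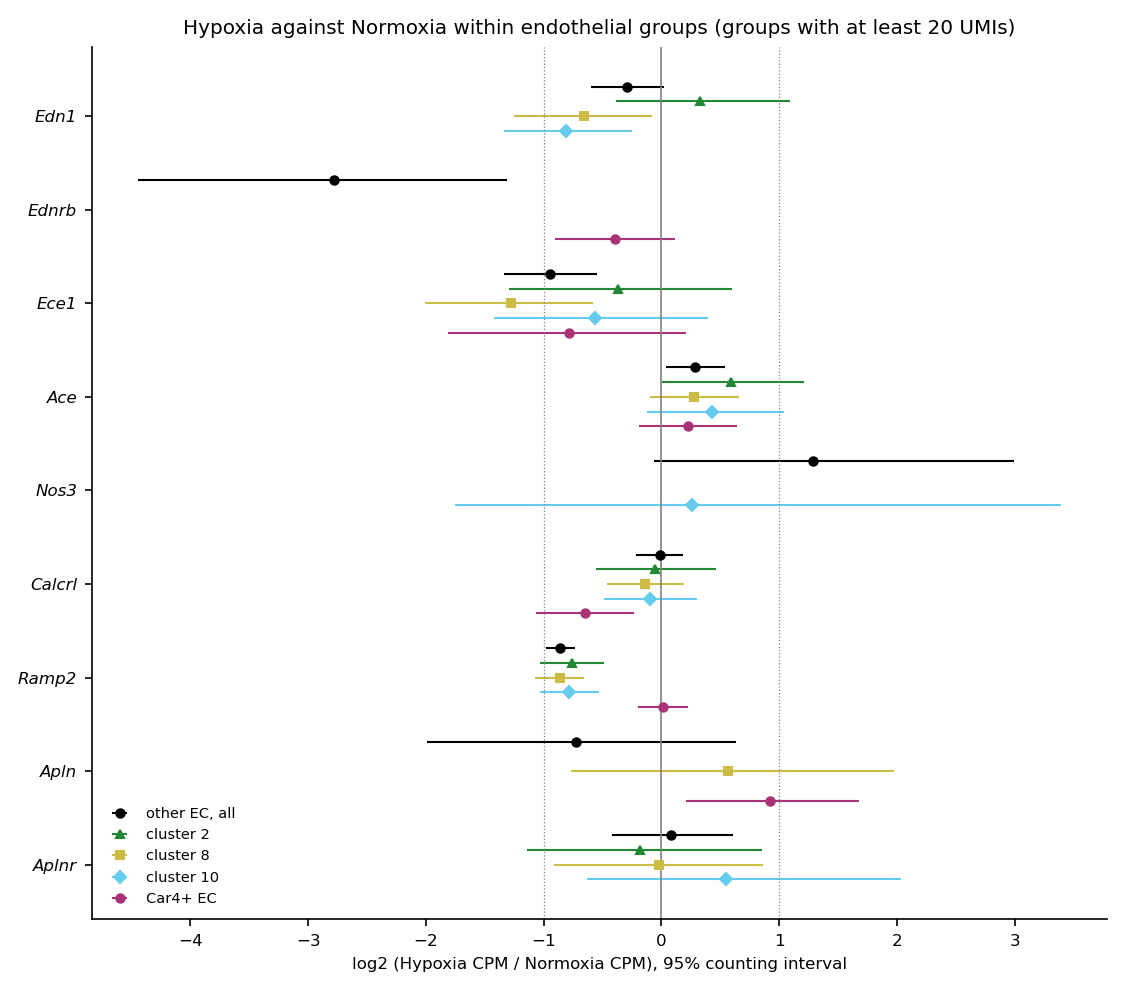
Log2 ratio of the Hypoxia to the Normoxia level (horizontal axis) of 9 genes in all other endothelial cells (black), in their clusters 2, 8 and 10 and in Car4-positive cells (purple), where a group had at least 20 UMIs; whiskers are exact conditional binomial 95% intervals of counting error, and dotted lines mark 2-fold. Ramp2 lies between -0.86 and -0.76 in the other endothelial cells and at 0.01 in the Car4-positive cells.

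Apelin was the mirror image of endothelin-1 within the endothelium. Apln (chrX:48025146-48034853, − strand) was 364 CPM (234 to 542) in Normoxia, from 24 UMIs in 13 of 20 Car4-positive cells, and 691 CPM (523 to 895) in Hypoxia, from 57 UMIs in 17 of 20 cells. In other endothelial cells it was 46.3 CPM (21.2 to 87.9) in Normoxia and 28.0 CPM (16.0 to 45.5) in Hypoxia, and 77.8% of the 9 Normoxia UMIs were in 1 cell. The Car4-positive level was 7.87-fold higher in Normoxia and 24.7-fold higher in Hypoxia (log2 ratios 2.98, 1.82 to 4.27, and 4.62, 3.80 to 5.52). Without the cell with most Apln UMIs the Normoxia log2 ratio was 4.82. Apln was also the member with the highest ratio of Hypoxia to Normoxia in Car4-positive cells, at 1.90-fold (log2 0.92, 0.21 to 1.68), below the 2-fold line. It did not last under other ways of drawing the group: the log2 ratio was -0.073 for cells found one by one by their markers and -0.0020 for Car4-positive cells taken by at least 1 Car4 UMI.

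Aplnr, the receptor (chr2:85136225-85139923, + strand), was at 0 in all 40 Car4-positive cells, which allows a share of cells with a UMI of up to 15% in each library at 3 cells (the exact upper bound is 16.8%). In other endothelial cells it was 226 CPM (164 to 304) in Normoxia, from 44 UMIs in 26 of 75 cells, and 240 CPM (201 to 283) in Hypoxia, from 137 UMIs in 76 of 176 cells. Taking 3 counts per library as the floor, the Car4-positive level was 4.97-fold lower in Normoxia and 6.59-fold lower in Hypoxia. The exact interval of the log2 ratio ended at -1.95 in Normoxia and -2.40 in Hypoxia. Between the libraries the log2 ratio in other endothelial cells was 0.08 (-0.42 to 0.61).

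Ligand and receptor of the endothelin and of the apelin system were each highest in different endothelial groups in both libraries. An Apln or Ednrb UMI was found in 20 of 20 Normoxia and 19 of 20 Hypoxia Car4-positive cells, and both genes had a UMI in 12 and 15 of them. Of the other endothelial cells, 3 of 75 and 8 of 176 held either gene. Among the other endothelial cells of the 2 libraries, those with both Edn1 and Aplnr numbered 11 of 75 and 38 of 176, and cells with both Edn1 and Ednrb 1 of 75 and 3 of 176. The few other endothelial cells with an Apln UMI did often hold its receptor, since 1 of 2 in Normoxia and 5 of 7 in Hypoxia also had an Aplnr UMI. At a fixed depth of 1000 UMIs per cell the shares had the same direction, but not all intervals were apart. Ednrb was found in 50% (27.2 to 72.8) of Normoxia and 55% (31.5 to 76.9) of Hypoxia Car4-positive cells, against 2.82% (0.343 to 9.81) and 1.18% (0.144 to 4.21) of other endothelial cells. Edn1 was found in 26.8% (16.9 to 38.6) and 32.5% (25.5 to 40.2) of other endothelial cells. In Car4-positive cells Edn1 was found in 1 of 20 in Normoxia (0.127% to 24.9%) and 0 of 20 in Hypoxia (0% to 16.8%). Aplnr was found in 18.3% (10.1 to 29.3) and 24.3% (18.0 to 31.4) of other endothelial cells. It was in 0 of 20 Car4-positive cells per library (0% to 16.8%). The intervals of Edn1 and of Aplnr thus overlapped in Normoxia and not in Hypoxia. Thinning left out 4 Normoxia and 7 Hypoxia cells of the other endothelial group, and without thinning the Edn1 shares there were 46.7% and 52.8%.

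The same 4 genes were set against the Car4 count of the cell. Because the Car4-positive group was chosen by Car4, this is a description of the same division and no separate support for it. In cells with 0 Car4 UMIs (49 Normoxia and 121 Hypoxia cells of both endothelial groups), Edn1 was 855 and 687 CPM and Apln 0 and 6.06 CPM. In cells with 1 to 4 Car4 UMIs (21 and 47 cells), Edn1 was 490 and 322 CPM, and Apln and Ednrb were at 0 in both libraries. In cells with at least 5 Car4 UMIs (25 and 28 cells, of which 20 in each library were the Car4-positive cluster), Edn1 was 43.0 and 124 CPM, Apln 354 and 464 CPM, and Ednrb 881 and 464 CPM. Aplnr was 227 and 218 CPM at 0 Car4 UMIs, 297 and 252 CPM at 1 to 4, and 21.5 and 144 CPM at 5 or more. In Hypoxia the Edn1 level at 1 to 4 Car4 UMIs (243 to 419) lay below that at 0 (601 to 783), while the Aplnr intervals of the 0 and the highest bin overlapped (171 to 275 and 90.1 to 218). The bins differed in depth, with medians of 2208 to 2861 UMIs per cell in Normoxia and 2551 to 3998 in Hypoxia.

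**Figure D3:**
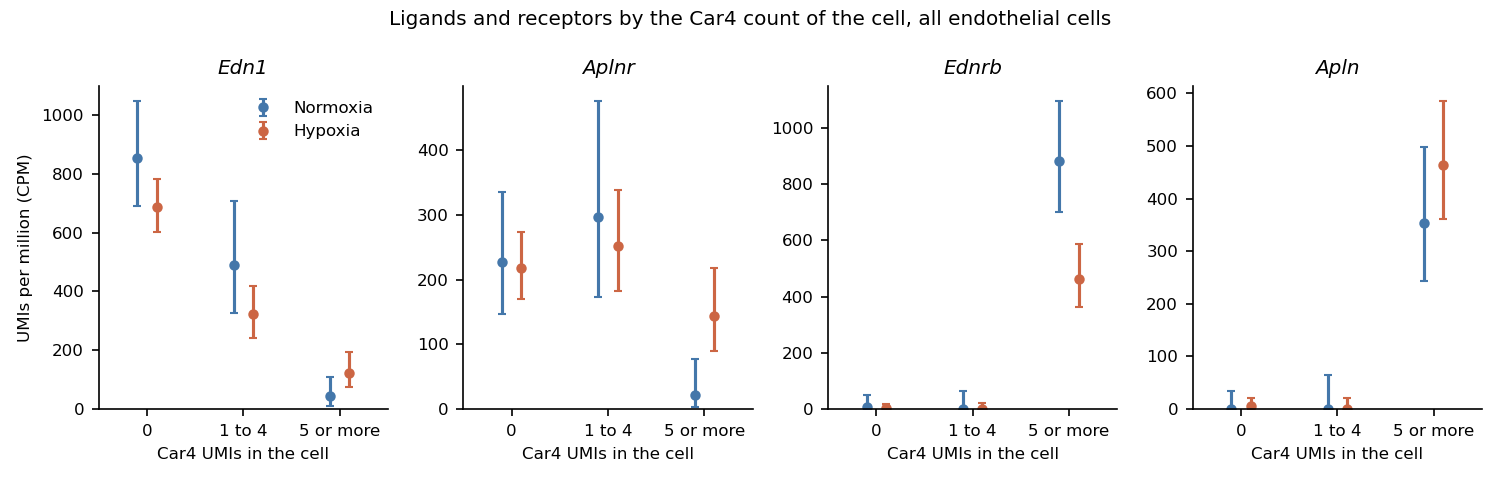
Level in CPM (vertical axis, linear from 0) of the ligands Edn1 and Apln and the receptors Ednrb and Aplnr in endothelial cells binned by their Car4 UMIs (horizontal axis: 0, 1 to 4, 5 or more), for Normoxia (blue) and Hypoxia (orange) with exact Poisson 95% intervals. Ednrb and Apln are near 0 in the lower bins of both libraries and stand between 354 and 881 CPM in the highest bin.

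Counted over the list, 8 members had at least 20 UMIs over the endothelial cells in Normoxia, of which 2 (Ednrb and Apln) were at least 2-fold higher in Car4-positive cells and 2 (Edn1 and Aplnr) at least 2-fold lower. Among all 2517 genes with as many UMIs, 9.06% were higher and 14.5% lower. In Hypoxia 9 members had enough UMIs, 3 were higher (Ednrb, Ramp2 and Apln), beside 10.8% of 5023 genes. With a level of 0 set to the floor of 3 counts, 2 were lower in Hypoxia (Edn1 and Aplnr), beside 16.8% of all genes. With a level of 0 taken as past 2-fold, Nos3, whose fold at the floor was 1.73, made 3, beside 19.9%. In Normoxia the counts were the same either way. The median log2 ratio of the members was 0.19 in Normoxia and -0.33 in Hypoxia, against -0.08 and -0.06 over all genes. The direction of Edn1, Ednrb, Apln and Aplnr was the same in all 15 alternatives tried in each library, but the sizes of the log2 ratios were not. In Normoxia they ranged from -5.47 to -0.87 for Edn1, from 1.76 to 7.69 for Ednrb, from 0.62 to 5.05 for Apln and from -4.47 to -0.85 for Aplnr. Hypoxia gave ranges of -6.65 to -1.34 for Edn1, 3.25 to 8.46 for Ednrb, 3.00 to 7.11 for Apln and -2.87 to -0.12 for Aplnr. The ends nearest to 0 came from drawing the groups another way. With Car4-positive cells taken by at least 1 Car4 UMI, the Aplnr ratio was -0.85 in Normoxia and -0.12 in Hypoxia, and with cells found one by one by their markers the Normoxia ratios of Edn1 and Apln were -0.87 and 0.62.

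**Figure D4:**
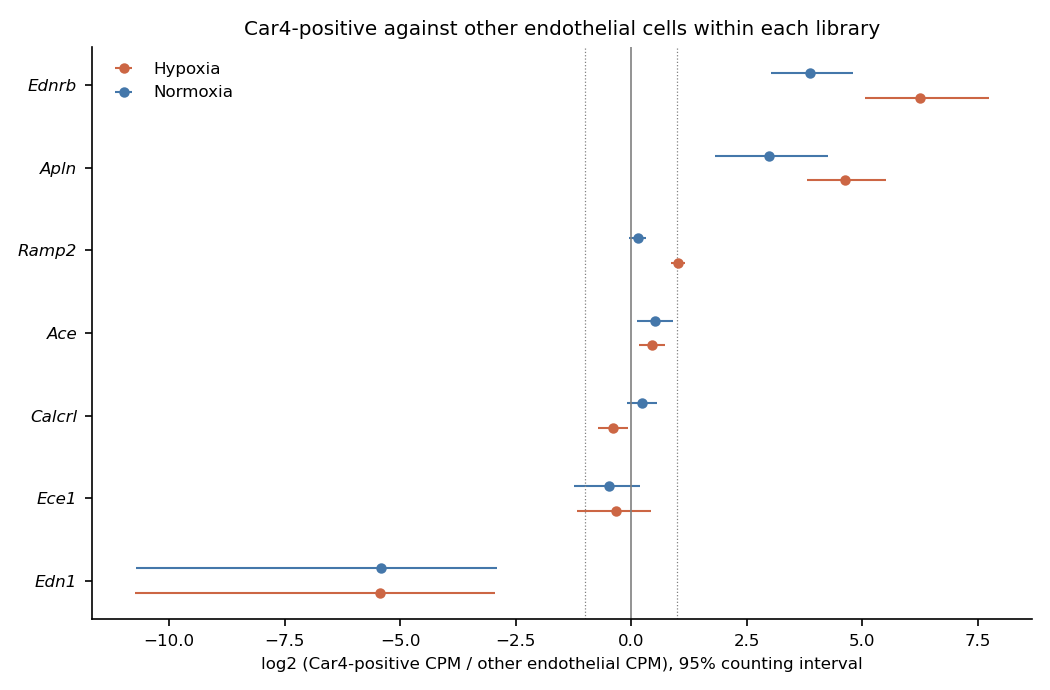
Log2 ratio of the level in Car4-positive to that in other endothelial cells (horizontal axis) for 7 genes with UMIs in both groups, in Normoxia (blue) and Hypoxia (orange), with exact conditional binomial 95% intervals; dotted lines mark 2-fold. Ednrb and Apln lie above 2-fold and Edn1 below it in both libraries, and the Ramp2 points are at 0.15 and 1.02.

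Between the libraries few members differed by 2-fold. In other endothelial cells 9 members had at least 20 UMIs, and 1 was at least 2-fold higher in Hypoxia (Nos3) and 1 at least 2-fold lower (Ednrb). Among all 5505 genes, 6.59% were higher and 4.6% lower, so 1 of 9 in each direction is near the background. In Car4-positive cells 6 members had enough UMIs and 0 passed 2-fold in either direction, beside 5.26% higher and 5.76% lower of 1407 genes. The median log2 ratio of the members was -0.29 in other endothelial cells and -0.19 in Car4-positive cells, against -0.02 and -0.0035 over all genes.

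The other genes of the same systems were drawn from a list of 65, of which 19 had at least 20 UMIs in other endothelial cells. In Hypoxia 1 of these was at least 2-fold higher and 3 lower, beside 6.59% and 4.6% of all genes. Of the 6 with enough UMIs in Car4-positive cells 1 was higher and 1 lower, beside 5.26% and 5.76%. Of the 8 further adrenomedullin genes, 4 had enough UMIs in other endothelial cells. Ramp3, an alternative partner of Calcrl, was 30.9 CPM in Normoxia against 82.2 CPM in Hypoxia (log2 1.41, 0.19 to 2.93). Gpr182, a scavenging receptor related to Ackr3, was 216 and 82.2 CPM (log2 -1.39, -2.03 to -0.76), and Ackr3, a scavenger of adrenomedullin and chemokines, was 144 and 164 CPM (log2 0.19, -0.43 to 0.86). Ramp3 was thus higher in the same cells in which Ramp2 was lower, at far fewer UMIs (47 against 1441 in Hypoxia).

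Of 24 nitric oxide and cGMP genes, 11 had enough UMIs in other endothelial cells, 0 were higher and 1 was lower (Pts, an enzyme of tetrahydrobiopterin synthesis, at 9 and 12 UMIs and a log2 ratio of -1.14, -2.51 to 0.29). The most abundant were Cav1, the caveolar protein that binds Nos3, at 1816 and 2135 CPM (log2 0.23, 0.06 to 0.41), and Ddah2, which breaks down an inhibitor of nitric oxide synthases, at 638 and 455 CPM (log2 -0.49, -0.80 to -0.17). In Car4-positive cells Hsp90aa1, a chaperone that binds Nos3, was 60.7 CPM in Normoxia against 400 CPM in Hypoxia (log2 2.72, 1.23 to 4.68), and Ddah1 was 258 and 84.8 CPM (log2 -1.61, -3.12 to -0.26), on 4 and 33 and on 17 and 7 UMIs. Cav1 was lower in Car4-positive than in other endothelial cells in both libraries (log2 -0.79, -1.19 to -0.42, in Normoxia and -0.94, -1.26 to -0.63, in Hypoxia), and so was Ddah2 (-1.0, -1.74 to -0.33, and -1.06, -1.84 to -0.37). Pde3a, a phosphodiesterase, gave 27 UMIs in other and 1 UMI in Car4-positive cells in Normoxia (log2 -3.19, -8.55 to -0.59) and 81 and 2 UMIs in Hypoxia (-2.55, -5.62 to -0.65). Gch1 and Spr, enzymes of tetrahydrobiopterin synthesis, were past 2-fold lower in Car4-positive cells in Hypoxia, but with intervals that held 0 (log2 -1.91, -7.27 to 0.70, and -1.12, -2.78 to 0.17). Nostrin, a Nos3-binding trafficking protein, stood at 440 and 618 CPM in Car4-positive cells of Normoxia and Hypoxia (log2 0.49, -0.20 to 1.20).

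Npr3, the clearance receptor, was 175 CPM in Normoxia against 63.0 CPM in Hypoxia in other endothelial cells (log2 -1.47, -2.19 to -0.75). It was at 0 in Car4-positive cells of both libraries, at the 3-count floor 3.84-fold lower in Normoxia and 1.73-fold lower in Hypoxia. The exact intervals of these 2 log2 ratios ended at -1.56 and -0.42. Npr1, the guanylyl cyclase receptor, was 190 and 168 CPM in other endothelial cells, and it stood at 30.4 and 133 CPM in Car4-positive cells of the same libraries, so the groups differed in Normoxia (log2 -2.65, -5.75 to -0.69) and not beyond counting error in Hypoxia (-0.33, -1.38 to 0.57). Gpr182 was at 0 in Normoxia Car4-positive cells, 4.74-fold below the other cells at the 3-count floor, and the exact interval of the log2 ratio ended at -1.88. Of the 7 further endothelin genes and the single further apelin gene, 0 had at least 20 UMIs in either endothelial group. Of the 13 further renin, angiotensin and kinin genes only Atp6ap2, the prorenin receptor, reached that number in other endothelial cells, at 144 and 92.7 CPM (log2 -0.64, -1.32 to 0.08). Of 6 prostacyclin and thromboxane genes only Ptgs1 did, with 5 and 20 UMIs.

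Each member's level was set beside those of all genes with at least 50 CPM in some group, across the 19 combinations of cell group and library with at least 10 cells. Because the combinations share libraries and most groups lack these genes altogether, the correlations of log2(CPM + 10) describe the pattern only. Nearest to Edn1 were Sema3g (Pearson r 0.98), Arhgef26 (0.96) and Hey1 (0.95), and nearest to Ednrb were Abcc3 (0.87), Pde8b (0.84) and Tln2 (0.84). Apln was nearest to Pphln1 (0.94), Sema7a (0.94) and Rprml (0.93), and Aplnr to Tmem252 (0.97), Slc26a10 (0.95) and Cd93 (0.95). Ramp2 was nearest to Ecscr (0.97), Cdh5 (0.96) and Cdc42ep1 (0.95), Calcrl to Stmn2 (0.95), Clec1a (0.95) and Sox7 (0.95), and Ace to Tmem100 (0.93), Foxf1 (0.90) and Clec14a (0.89). Ece1 was nearest to Eng (0.93), Tjp1 (0.92) and Thbd (0.92), Nos3 to Mmrn2 (0.95), Lama5 (0.95) and Fzd6 (0.94), and Adm to Lynx1 (0.80), Cd55 (0.79) and Kdelr3 (0.78).

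Cluster 4 (23 Normoxia and 16 Hypoxia cells) held 10 endothelial markers but was led by Scgb1a1, Fabp4, Tpm1 and Vwf, and was left unnamed and outside the endothelial groups. Edn1 was 29.1 CPM in its Normoxia cells, from 3 UMIs, and 984 CPM in its Hypoxia cells, from 90 UMIs, and a single Hypoxia cell held 45.6% of those. Ace was 38.9 and 722 CPM, Calcrl 107 and 580 CPM, and Ramp2 466 and 1115 CPM. All 4 were thus higher in its Hypoxia cells, with log2 ratios of 5.08 (3.48 to 7.38), 4.21 (2.79 to 6.13), 2.44 (1.48 to 3.53) and 1.26 (0.75 to 1.78). Apln was at 0 in both. Whether the cluster's cells were of 1 type in the 2 libraries was not tested, so its ratios are given as values of the cluster only.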

How the data were processed

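Raw UMI counts per gene and cell were deposited by the authors as 1 matrix for each library, made with Cell Ranger (3.1.0 in the matrix header) on mm10; the strand setting is not given in the sources used here. The depth was 1323874 UMIs in Normoxia and 1989423 in Hypoxia. Retained cells had 200 to 6000 genes and no more than 5% of UMIs from mitochondrial genes. With scanpy 1.11.5 in Python 3.11.15, counts were scaled to 10000 per cell and logged, the 75 member and pathway genes were removed, and 2000 variable genes, 15 principal components, 15 neighbours and Leiden resolution 1.0 gave the clusters. A cluster was named by the class with the most markers, at least 3, in 25% of its cells and at 2-fold of the median cluster, unless its 10 leading genes went against it. Endothelial clusters with Car4 UMIs in at least 50% of cells were called Car4-positive. Scrublet called 1 Normoxia and 2 Hypoxia cells doublets (1 in an endothelial group), and doublets were kept. UMIs were summed per group and library and divided by all UMIs (CPM), with exact Poisson intervals; ratios have exact conditional binomial intervals and shares Clopper-Pearson intervals. PCR duplicates were removed by UMI, and intervals and the floor of 3 counts cover counting error only. With 1 library per group no test was run. Members with at least 20 UMIs over the groups compared were counted past 2-fold, beside all genes with as many. Ratio intervals were tried on counts simulated with Poisson error only, the error they assume. The simulation had no spread between cells or animals and cannot speak to it.

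The 10 members, the pathway lists, the cell type markers and the rule for named genes were chosen with earlier results of these data known. All members are named; pathway genes are named when 2-fold apart or among the 2 most abundant of their system, and for each member the 3 genes with the highest correlation. Scavenger, natriuretic, Cav1 and Cldn5 values beyond that rule were chosen after their values were seen. Gene positions are from GENCODE vM21 and promoters from RefSeq on GRCm38.p6, matched by symbol.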

Additional observations from a re-analysis of the deposited data

Results flagged for a closer look

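Barcodes that the filters on genes and mitochondrial UMIs left out were not part of any comparison, and they held member transcripts. The 80 left-out Normoxia barcodes gave 200 member UMIs (946 CPM), among them 82 of Ramp2 and 42 of Calcrl, and the 160 left-out Hypoxia barcodes gave 619 (1558 CPM), among them 212 of Ramp2, 166 of Calcrl and 120 of Ace. No cell type was given to these barcodes.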

How the results depend on the processing

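No paired analysis was possible because each group had 1 library, and with 1 library per group none could be left out. Among the 16 alternatives for other endothelial cells, Ramp2 was lower in Hypoxia in all 16 (log2 ratio -0.90 to -0.44), as was Ece1 (-1.10 to -0.49), and Ace was higher in all 16 (0.23 to 0.80). Edn1 kept its sign in 14, Nos3 in 15, Apln and Aplnr in 11 and Calcrl in 10. For Nos3 the exception, without a mitochondrial maximum, was a bound (at least -0.98 at the 3-count floor, with 0 UMIs in Normoxia and 11 in Hypoxia) that gives no direction. In Car4-positive cells Calcrl was lower in all 13 alternatives (-0.89 to -0.09), while Ramp2 kept its sign in 7 of 13 (-0.70 to 0.07) and Apln in 11, with -0.073 for cells found one by one and -0.0020 for cells taken by at least 1 Car4 UMI. For Car4-positive against other cells, Ece1 kept its sign in 13 of 15 in each library and Ramp2 in 14 of 15 in Normoxia. In Hypoxia Nos3 kept it in 14 of 15 (1.01 with cells found one by one) and Calcrl in 13 (0.23 with cells found one by one and 0.096 with cells taken by 1 Car4 UMI). The cause of these changes was not tested.

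The median member ratio in other endothelial cells was 0.23 with cluster 4 added, an alternative chosen after seeing the data, as were counting cluster 8 as Car4-positive, leaving out cluster 10 and setting sums of 0 to the floor. The median absolute log2 ratio of Car4-positive to other cells, 1.42 in Normoxia, was 2.25 at a mitochondrial maximum of 10%, 0.27 with cells found one by one and 0.59 with cells taken by 1 Car4 UMI. In Hypoxia it was 1.02, and 0.21 with cells taken by 1 Car4 UMI and 1.86 without cluster 10.

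The count of members at least 2-fold higher in Hypoxia in other endothelial cells was 0, not 1, without a mitochondrial maximum, with 30 principal components, with cells found one by one or taken by 1 Car4 UMI, with cluster 8 as Car4-positive, without cluster 10 and at a minimum of 50 UMIs. The count at least 2-fold lower was 2 without a mitochondrial maximum and with cells found one by one and 4 at 1.5-fold. It was 0 at a mitochondrial maximum of 10%, at a maximum of 4000 genes, without Scrublet doublets and with 30 principal components. It was also 0 with cells taken by 1 Car4 UMI and without the cell with most UMIs of each gene. The same held with cluster 8 as Car4-positive, without cluster 10 and at 50 UMIs. Ednrb, the only member counted lower as reported, had 20 UMIs in these cells, exactly the minimum. A count of 0 thus does not separate a ratio under 2-fold from a gene under the minimum. The Ednrb log2 ratio was below 0 in all 15 alternatives (-3.54 to -0.85).

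The median share of cells with a member UMI, over the 10 members, moved with the number of UMIs kept per cell. In other endothelial cells of Normoxia it was 14.0% at 500 UMIs per cell, 22.5% at 1000, 39.0% at 2000 and 40.7% without thinning, and in Hypoxia 9.66%, 24.3%, 33.7% and 44.9%. In Car4-positive cells of Normoxia it was 10% at 500 UMIs, 42.5% at 1000 and 70% without thinning, and in Hypoxia 12.5%, 37.5% and 75%. Ednrb, Nos3, Adm and Apln each had under 50 UMIs over both libraries in other endothelial cells, which limits the precision of their ratios there.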
